A study of Mus musculus with 70 samples.

Results

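The first round of lung colonisation was examined in GFP-RENCA cells, a mouse renal adenocarcinoma line with intact Vhl that had been given green fluorescent protein by lentivirus. Parental cells never passaged in mice (P0) were compared with the cultures recovered from lung metastases after a single injection of parental cells into the tail vein (T-LM P1). The samples were chosen by their labels. They were P0 replicates 1 and 2 of the first array set, T-LM P1 replicates 2 to 5, and 1 further passage 1 sample labelled LOT1. The title of LOT1 names no route, but its experiment and source labels are those of the tail vein. The series has 70 arrays, of which 5 carry the group and replicate number of another array with batch2 added to the title. These were taken as repeat arrays, which leaves 65 samples, 7 of them used here. Their titles do not say whether the RNA was the same. The labels give no T-LM P1 replicate 1. Counts of calls are stated with LOT1 (n = 5) and without it (n = 4), and a value given once is with LOT1.

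P0 was a cell line grown in vitro with no treatment. For T-LM P1, the same cells entered the circulation through the tail vein of female wild-type BALB/c mice, which have a working immune system. The lungs were then digested and the harvested cells kept in culture until the study no longer detected GFP-negative cells. A T-LM P1 sample was therefore an explant culture and not lung tissue, and P0 had passed through neither the mouse nor the digestion and selective culture. The injection itself, growth in the lung and the recovery cannot be told apart here. Nothing in the labels says whether the 2 P0 samples came from separate cultures or each T-LM P1 sample from its own mouse. The spread between samples of a group may therefore in part be technical. The p-values for P0 against T-LM P1 do not rest on the spread of these samples alone. They use a spread pooled within groups over the 26 arrays of the fit, which include later passages of this route (T-LM P2 to P6).

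Cells injected into the tail vein meet the lung capillaries first. To grow there they have to survive shear and immune attack, attach to endothelium and basement membrane, and build or recruit a supporting matrix. Fibrillar collagens, fibronectin and small proteoglycans form the interstitial matrix, while laminins and type IV collagen form basement membranes. Acute phase proteins are secreted mainly by liver in systemic inflammation, under interleukin 6, STAT3 and NF-kB, and many epithelial and tumor cells can make them too. In renal carcinoma, loss of VHL stabilises the hypoxia-inducible factors Hif1a and Epas1, which switch on glucose transport, glycolysis and carbonic anhydrase 9.

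Expression was read on single-colour Agilent arrays. A level is log2 of the signal after processing by the scanner software, less the array's own 75th percentile over the probes detected above background on all 70 arrays, so 0 is the signal of a bright probe common to all samples and a difference of 1 is a factor of 2. A probe not well above background on any array of a group has only a bound there, and ratios against it are printed as "at least". A fitted change printed for such a gene goes with its error and test and is not itself a bound. The percentage of probes well above background was 29.8 and 27.9 in P0, 55.1 in T-LM P1 replicate 2 and 34.9 to 37.4 in the other T-LM P1 samples. Both P0 arrays and all 5 T-LM P1 arrays lay on different slides, so that slide cannot be told apart from sample. The difference between the mean levels of 17 long mRNAs and of 78 ribosomal protein mRNAs, a measure of RNA balance, was -7.28 and -7.08 in P0 and -6.71 to -5.27 in T-LM P1, with no overlap between these arrays. The repeat arrays of the 2 P0 samples gave -6.50 and -6.59, above T-LM P1 replicate 3 (-6.71). The measure thus also differed between arrays of the same P0 replicate number.

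LOT1 stood apart from the other T-LM P1 samples. Across probes its levels correlated at 0.974 and 0.967 with the P0 samples and at 0.931 to 0.936 with T-LM P1 replicates 2 to 5, whereas replicates 3 to 5 correlated with each other at up to 0.991 and the P0 pair at 0.991. Replicate 2 correlated with the other T-LM P1 samples at 0.957 at most, so the numbered replicates were not equally alike. These values describe likeness across probes, which are not independent. Without LOT1 the median standard deviation of a probe in T-LM P1 went from 0.357 to 0.291, against 0.198 in P0.

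After the first lung passage, extracellular matrix and acute phase genes rose, and they made up 8 of the 12 largest rises. Of 12685 gene symbols tested, each by its brightest probe, 353 rose (2.78%) and 57 fell (0.449%) from P0 to T-LM P1 at a limma adjusted p of 0.01 or less. Without LOT1, 1095 of 12646 rose (8.66%) and 195 fell (1.54%). All 410 symbols called with LOT1 were also called without it and in the same direction, and a further 880 were called only without it. Over all probes 601 were called, of which 83.2% were higher. This split depended on the scaling: 24.8% of the called probes were higher with the percentile taken over all probes, 56.8% in the deposited series values and 53.9% after normexp and quantile normalization. The median change of all tested probes was 0.14 as reported and -0.27, -0.09 and -0.09 under those scalings. Without LOT1 the share of higher calls was 81.3%, and 37.3% and 56.7% under the first and second of them. The 12 largest rises and 12 largest falls kept their direction under all of these scalings. They were picked for the size of their change, which exceeded these shifts of the median, so this could hardly have come out otherwise. Counts of list members below are under the scaling as reported, unless another is named.

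**Figure D1:**
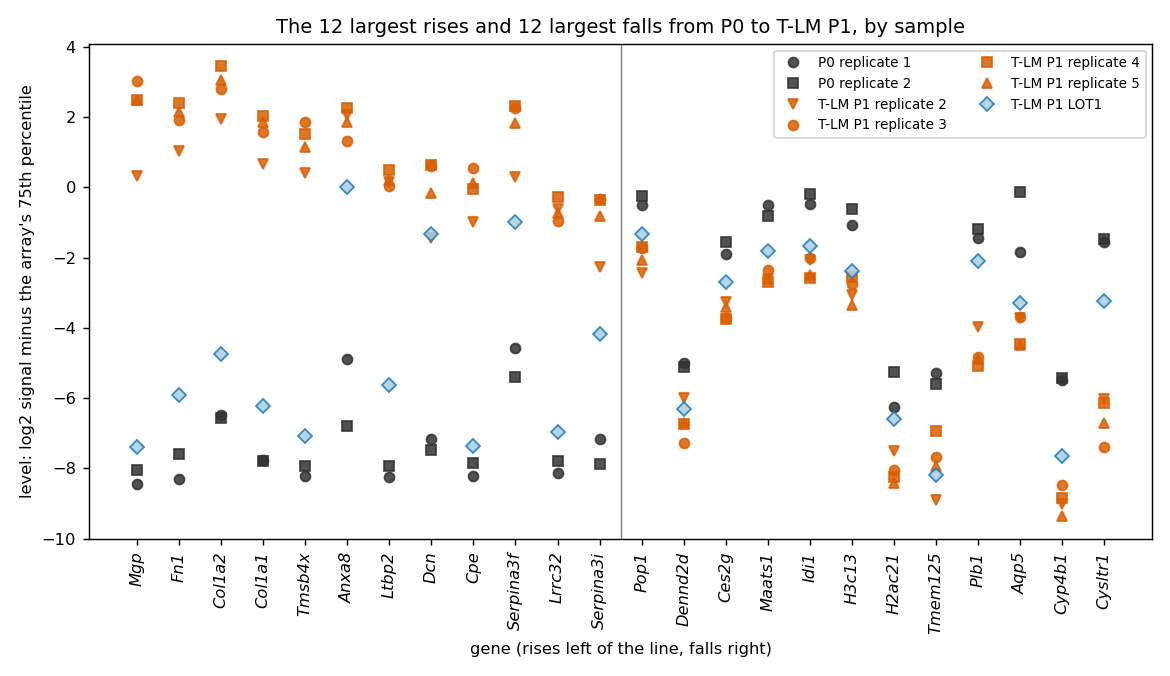
Levels (log2, scaled to the 75th percentile of common probes) of the 12 largest rises and 12 largest falls from P0 to T-LM P1, with a point for each of the 2 P0 samples, the 4 T-LM P1 replicates and LOT1. LOT1 lies near P0 for Mgp, Tmsb4x and Cpe and near the other T-LM P1 samples for Dcn and Anxa8.

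Genes of the interstitial matrix gave the largest rises. Mgp, the matrix Gla protein that holds back calcification, had levels of -8.45 and -8.05 in the P0 samples, 0.31, 3.03, 2.49 and 2.47 in T-LM P1 replicates 2 to 5 and -7.40 in LOT1. Its fitted log2 change was 8.43 ± 1.93 (SE; adjusted p = 0.00955) with LOT1 and 10.32 ± 1.28 (adjusted p = 9.9e-06) without it, and as it was not well above background in P0 this means at least 70.2-fold and at least 261.0-fold higher. The 4 numbered replicates were thus bright and LOT1 was at the level of P0. Fn1, fibronectin, was at -8.29 and -7.60 in P0, at 1.04, 1.92, 2.38 and 2.15 in replicates 2 to 5 and at -5.90 in LOT1, at least 77.3-fold higher with LOT1 and at least 227.1-fold without it. Both chains of type I collagen followed the same order of samples. Col1a1 was at -7.76 and -7.80 in P0, at 0.66, 1.58, 2.03 and 1.87 in the numbered replicates and at -6.24 in LOT1, with a log2 change of 7.76 ± 1.66 (adjusted p = 0.00607), or 9.31 ± 1.17 without LOT1 (adjusted p = 1.17e-05), at least 61.1-fold and at least 179.5-fold higher. Col1a2 was at least 152.2-fold higher with LOT1 (7.82 ± 1.67) and at least 433.8-fold without it (9.33 ± 1.23). With LOT1 kept, the calls of Mgp, Col1a1 and Col1a2 were lost when any other single P0 or T-LM P1 sample was left out.

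Ltbp2 and Lrrc32 were also among the 12 largest rises. Ltbp2, a matrix protein of the latent TGF-beta binding family, was at -8.26 and -7.94 in P0, at 0.14, 0.04, 0.48 and 0.21 in replicates 2 to 5 and at -5.62 in LOT1 (at least 32.1-fold higher with LOT1, adjusted p = 0.000542; at least 72.2-fold without it). Lrrc32, which tethers latent TGF-beta to the cell surface, was at -8.14 and -7.80 in P0, at -0.63, -0.96, -0.27 and -0.72 in replicates 2 to 5 and at -6.97 in LOT1. All P0 values of both genes lay below all T-LM P1 values, and LOT1 was the lowest T-LM P1 sample for both. Dcn, decorin, a small proteoglycan that binds collagen and TGF-beta, differed from them in LOT1. It was at -7.17 and -7.49 in P0, at -1.44, 0.59, 0.62 and -0.18 in replicates 2 to 5 and at -1.32 in LOT1, so that LOT1 lay within the range of the others. Its log2 change was 6.99 ± 0.68 (adjusted p = 2.16e-06) with LOT1 and 7.23 ± 0.69 without it, at least 48.8-fold and at least 57.8-fold higher.

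More members of the matrix lists were called without LOT1 than with it, as was so over all symbols (8.66% and 2.78% higher). Of 15 interstitial collagens tested, 4 rose with LOT1 (Col1a1, Col1a2, Col6a3 and Col16a1) and 10 without it. The median log2 change was 2.44 with LOT1 and 2.82 without it, while that of LOT1 alone was 0.30, against 0.15, 0.15 and 0.08 over all symbols tested. Of 28 matrix glycoproteins and proteoglycans, 4 rose with LOT1 and 16 without it, with medians of 2.21, 2.89 and 0.17 in LOT1 alone. Of 22 basement membrane genes, 1 rose with LOT1 (Lamb3, a laminin chain of epithelial basement membranes) and 9 without it, among them Lamb1 and Nid1. Of 26 enzymes that modify collagen, 1 rose with LOT1 (Lox, lysyl oxidase, which cross-links collagen) and 10 without it. No member of these lists fell in either fit as reported. With the percentile over all probes, 1 collagen-modifying enzyme fell with LOT1, where 451 of 12685 symbols fell. Without LOT1, 1 such enzyme and 1 basement membrane gene fell under that scaling, where 856 of 12646 symbols fell.

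Enzymes and receptors that act on matrix were read beside the 2.78% and 8.66% of all symbols that rose with and without LOT1. Mmp2, gelatinase A, was one of 2 of 14 metalloproteinases and inhibitors that rose with LOT1, and 9 rose without it. Its levels were -4.80 and -4.43 in P0, -0.51, -1.22, -1.46 and -0.88 in replicates 2 to 5 and -1.54 in LOT1, a log2 change of 3.49 ± 0.39 (adjusted p = 1.48e-05). Mmp2 was therefore high in all 5 T-LM P1 samples. The other was Mmp13, a collagenase, which rose at least 3.59-fold (3.87 ± 0.71), with a level of -6.69 in LOT1 and -3.88 to -2.73 in the numbered replicates. Of 15 plasminogen and coagulation genes, 1 rose with LOT1 and 9 without it, including Plau, Plat and tissue factor (F3). Of 26 integrins and adhesion receptors, 3 rose with LOT1 (Itga7, Itgb3 and Itgb7) and 10 without it.

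Among 25 actin and contractile genes, 1 rose with LOT1 and 10 without it, where 2.78% and 8.66% of all symbols rose. Tmsb4x, thymosin beta 4, which binds actin monomers, was at -8.22 and -7.94 in P0, at 0.41, 1.84, 1.51 and 1.14 in replicates 2 to 5 and at -7.07 in LOT1, with a log2 change of 7.65 ± 1.71 (adjusted p = 0.00828) with LOT1 and 9.31 ± 1.15 without it, at least 45.9-fold and at least 145.1-fold higher. Acta2, smooth muscle actin, was not called with LOT1 (6.62 ± 1.62) and was called without it (at least 134.3-fold, adjusted p = 3.09e-05). Its level was -6.29 and -7.81 in P0, -6.62 in LOT1 and -0.02 to 2.07 in the numbered replicates, so LOT1 and P0 overlapped. Of 28 epithelial and mesenchymal transition genes, 4 rose with LOT1, and all 4 (Cldn4, Grhl2, Krt19 and Krt20) are epithelial genes. With the percentile over all probes 3 rose and 2 fell, where 197 of 12685 symbols rose and 451 fell. Without LOT1, 7 rose and 3 fell under the scaling as reported, beside 8.66% and 1.54% of all symbols. Those called only without LOT1 were Cdh2, Prrx1 and Snai2, which are mesenchymal and rose, and Cdh3, Krt18 and S100a4, which fell. Of these falls, Cdh3 and Krt18 are epithelial genes, while S100a4 is used as a mesenchymal marker. Vim, vimentin, stood at 2.74 and 2.93 in P0 and at 2.47 to 3.16 in T-LM P1 and was not called in either fit.

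**Figure D2:**
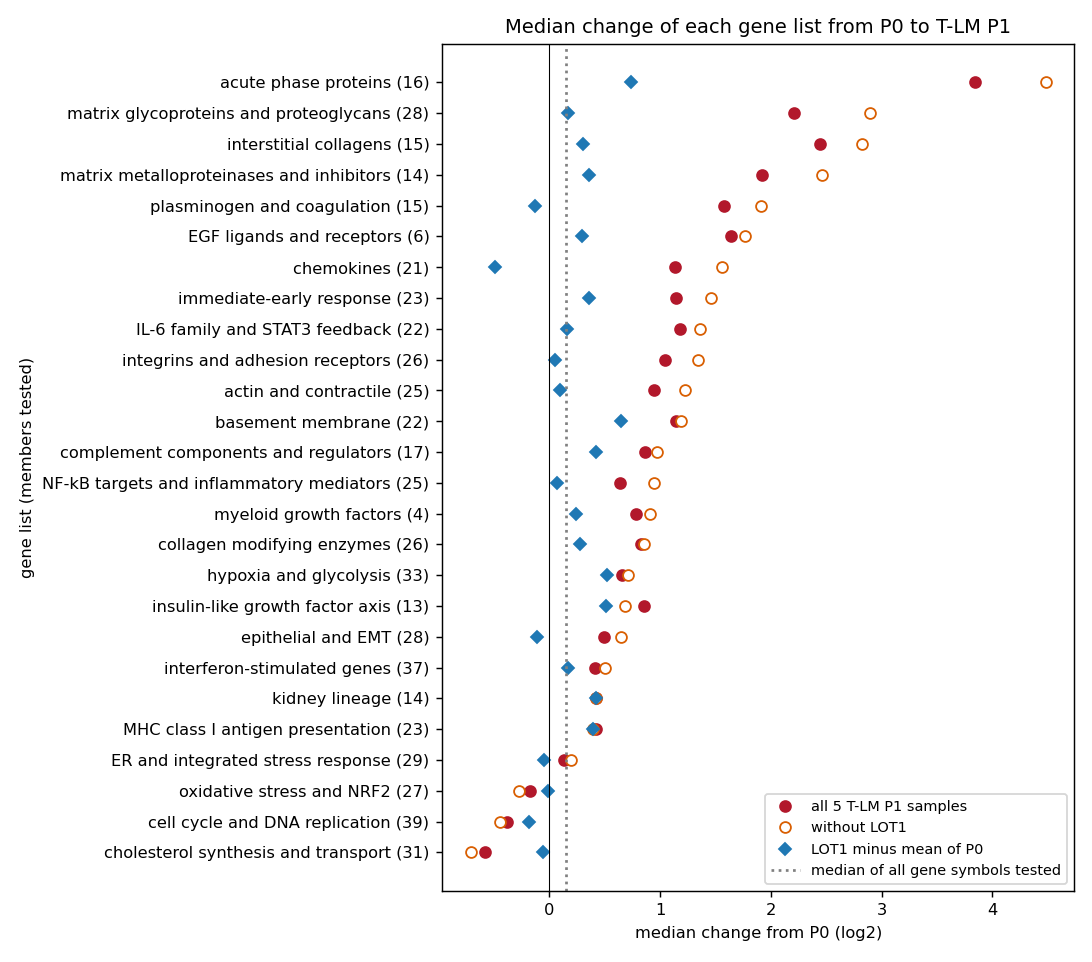
Median log2 change from P0 of the tested members of each gene list (number of members in brackets), over all 5 T-LM P1 samples, without LOT1, and for LOT1 alone, with a dotted line at the median of all symbols tested. Acute phase proteins have the highest median with all 5 samples (3.84), and the matrix lists lie above 2 for interstitial collagens and glycoproteins while LOT1 alone stays below 1 for them.

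Acute phase genes formed the list with the highest median change, 3.84 over 16 tested members with LOT1 and 4.48 without it, and 0.74 in LOT1 alone. Of the 16, 9 rose with LOT1 and 13 without it, beside 2.78% and 8.66% of all symbols, and none fell. Saa3, a serum amyloid A made outside the liver, was at -2.76 and -2.62 in P0, at 2.35, 3.60, 3.52 and 2.58 in replicates 2 to 5 and at -2.03 in LOT1, a log2 change of 4.69 ± 0.99 (adjusted p = 0.00579) with LOT1 and 5.70 ± 0.62 without it. Saa1 had levels of -4.16 and -4.26 in P0, of 0.31, 1.58, 1.46 and 0.40 in the numbered replicates and of -3.33 in LOT1. The orosomucoids Orm1, Orm2 and Orm3, carriers of small molecules in plasma, rose by 3.66 ± 0.63, 3.81 ± 0.60 and 2.66 ± 0.37, and Lrg1, a secreted glycoprotein that acts on TGF-beta signaling, by 3.04 ± 0.58. Saa1 and Saa2 are near-identical paralogs, Saa3 is a more distant one, and the orosomucoids are paralogs of each other, so probes within each family may share signal.

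The 3 acute phase genes with the largest changes were Serpina3f, Serpina3i and Serpina3n, neighbouring mouse paralogs of alpha-1-antichymotrypsin, an inhibitor of serine proteases. Serpina3f was at -4.58 and -5.39 in P0, at 0.29, 2.27, 2.31 and 1.82 in replicates 2 to 5 and at -1.0 in LOT1, a log2 change of 6.12 ± 0.72 (adjusted p = 2.59e-05) with LOT1 and 6.65 ± 0.61 without it. Serpina3i was at -7.16 and -7.88 in P0, at -2.27, -0.33, -0.36 and -0.81 in replicates 2 to 5 and at -4.17 in LOT1, at least 20.6-fold higher with LOT1 and at least 32.3-fold without it. Serpina3n was at -6.17 and -7.76 in P0, at -2.74, -0.96, -0.51 and -1.55 in replicates 2 to 5 and at -3.64 in LOT1. In all 3 genes LOT1 lay between P0 and the other T-LM P1 samples, over 0.5 of the way up. Cross-hybridisation between these paralogs was not tested.

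Because these neighbours rose together, their promoters are shown, as 300 bases that end shortly after the start of transcription, 5′ to 3′, as given by RefSeq for GRCm38.p6. They lie on the plus strand at chr12:104214294-104214593 for Serpina3f, chr12:104262872-104263171 for Serpina3i and chr12:104406458-104406757 for Serpina3n. Capitals mark TTCNNNGAA, the palindromic core of STAT binding sites, which reads the same on both strands and was the only motif searched.
Serpina3f: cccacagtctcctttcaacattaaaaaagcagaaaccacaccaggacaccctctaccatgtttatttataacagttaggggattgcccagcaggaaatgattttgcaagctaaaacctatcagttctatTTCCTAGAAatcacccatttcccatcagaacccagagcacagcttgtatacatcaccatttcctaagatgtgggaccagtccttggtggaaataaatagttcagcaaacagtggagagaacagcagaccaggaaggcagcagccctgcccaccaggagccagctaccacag
Serpina3i: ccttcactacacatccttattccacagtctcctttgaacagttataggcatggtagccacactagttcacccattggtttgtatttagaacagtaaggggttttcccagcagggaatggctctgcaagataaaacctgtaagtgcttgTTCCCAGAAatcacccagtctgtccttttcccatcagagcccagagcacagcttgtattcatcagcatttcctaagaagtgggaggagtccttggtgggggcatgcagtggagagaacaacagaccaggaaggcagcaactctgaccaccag
Serpina3n: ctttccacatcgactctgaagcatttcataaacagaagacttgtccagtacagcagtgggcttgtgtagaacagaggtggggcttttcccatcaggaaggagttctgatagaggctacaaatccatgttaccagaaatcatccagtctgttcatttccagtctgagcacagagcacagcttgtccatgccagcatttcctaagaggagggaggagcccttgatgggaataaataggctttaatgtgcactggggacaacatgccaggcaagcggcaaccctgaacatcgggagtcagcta
The motif was present once in Serpina3f, beginning at position -121 from the start, once in Serpina3i, at -102, and was not matched in this window of Serpina3n. It was present in 2 of the 8 acute phase genes called with LOT1 that had a promoter entry, and in 2726 of all 32851 promoters of this length (8.3%). A match is a description of letters and no sign of binding.

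Acute phase genes are known to respond to interleukin 6. Of 22 members of the interleukin 6 family and STAT3 feedback list, 2 rose with LOT1 and 8 without it, beside 2.78% and 8.66% of all symbols. Stat3 itself was at -1.62 and -1.67 in P0, at -0.03, -0.05, 0.18 and -0.05 in replicates 2 to 5 and at -0.81 in LOT1, a rise of 1.49 ± 0.30 (adjusted p = 0.00335) that was 1.66 ± 0.28 without LOT1. Bcl3, a nuclear partner of NF-kB, rose by 2.26 ± 0.45. Il6 was not called with LOT1 (5.32 ± 1.59, adjusted p = 0.04) and was called without it (at least 26.8-fold, adjusted p = 0.000262), its level being -8.63 in LOT1 and -2.94 to -0.06 in the numbered replicates. Socs3, the feedback inhibitor of this pathway, was likewise called only without LOT1 (3.51 ± 0.47).

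Of 25 NF-kB targets and inflammatory mediators, 2 rose with LOT1 and 8 without it. Nos2, inducible nitric oxide synthase, was at -1.35 and -3.0 in P0, at 1.87, 0.82, 1.02 and 1.39 in replicates 2 to 5 and at 0.86 in LOT1, with all 5 T-LM P1 samples above both P0 samples (3.37 ± 0.61, adjusted p = 0.00166). Tnfaip3, an NF-kB inhibitor, rose by 1.31. Among 21 chemokines, 1 rose with LOT1, Ccl8 (3.52 ± 0.56), and 5 without it. Ccl2, which attracts monocytes, was at -0.84 and 0.18 in P0, at 1.91, 3.68, 3.58 and 2.92 in replicates 2 to 5 and at -2.37 in LOT1, so that LOT1 was below P0 and the groups overlapped. Of 17 complement genes, 3 rose with LOT1 and 5 without it. C4b, a component of the classical pathway, was at least 13.2-fold higher with LOT1. The regulator Serping1 rose at least 13.8-fold with LOT1. Of 37 interferon-stimulated genes, 2 rose with LOT1 (Gbp2 and Stat2) and 3 without it, where 2.78% and 8.66% of all symbols rose. Of 23 genes of MHC class I antigen presentation 1 rose with LOT1, Nlrc5, the transactivator of that pathway, and 2 rose and 1 fell without it.

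**Figure D3:**
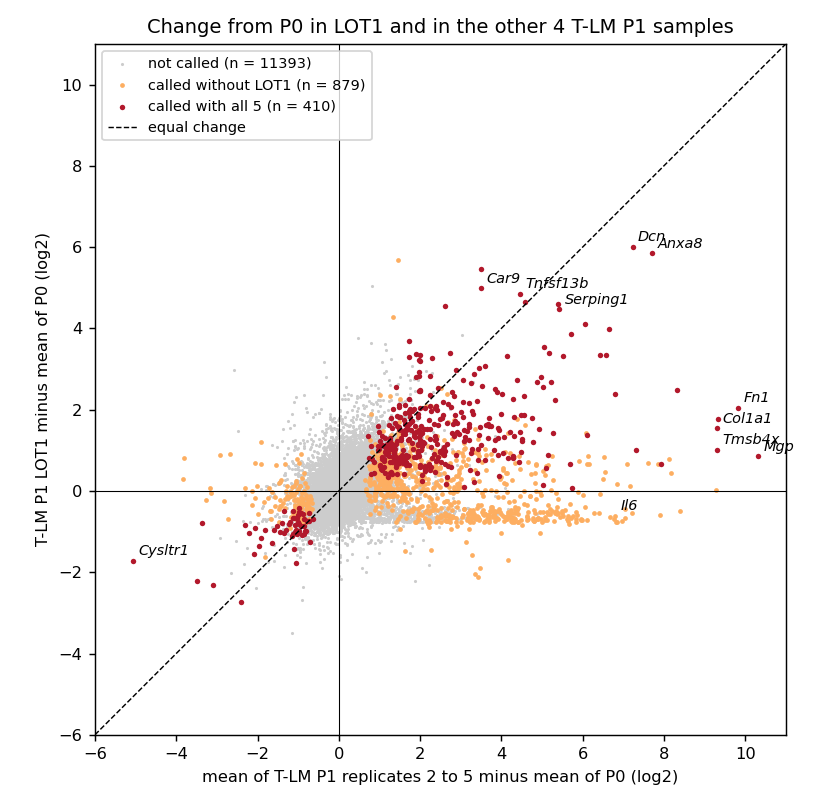
Log2 change from the P0 mean in LOT1 (vertical axis) against that in the other 4 T-LM P1 samples (horizontal axis) for the 12682 gene symbols with a value in LOT1, coloured by whether the symbol was called with all 5 samples or only without LOT1; the dashed line marks equal change. Both axes use the same 2 P0 arrays. Many called symbols lie along the horizontal line at 0 for LOT1.

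LOT1 shared some of the changes of the other T-LM P1 samples and not others. With the distance from the P0 mean to the mean of replicates 2 to 5 as the whole way, LOT1 stood over 0.5 of the way for 334 of the 1095 symbols that were higher without it (30.5%) and under 0.25 of the way for 550 (50.2%). Of the 195 lower symbols it stood over 0.5 for 88 (45.1%) and under 0.25 for 67 (34.4%). Among the 624 symbols that were higher by a log2 of 2 or more, 99 were over 0.5 (15.9%) and 418 under 0.25 (67.0%). Of the 24 symbols that were lower by 2 or more, 4 were over 0.5 (16.7%) and 15 under 0.25 (62.5%), shares near those of the rises of that size. These are descriptions, since LOT1 and the other samples are compared with the same P0 arrays.

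Anxa8, Tnfsf13b, Car9 and Wt1 were among the genes that rose in every T-LM P1 sample. Anxa8, an annexin that binds membrane phospholipids, was at -4.89 and -6.78 in P0, at 2.07, 1.32, 2.26 and 1.86 in replicates 2 to 5 and at 0.02 in LOT1 (7.34 ± 0.55, adjusted p = 3.65e-08). Wt1, a transcription factor of the developing kidney and of mesothelium, was at -5.50 and -7.93 in P0, at -1.52, -0.77, -0.73 and -0.95 in the numbered replicates and at -2.85 in LOT1 (5.35 ± 0.60, adjusted p = 1.55e-05). Both genes had P0 and T-LM P1 samples far apart, with LOT1 lowest among the T-LM P1 samples. At the other end, Cpe, carboxypeptidase E, a processing enzyme of prohormones, was at -8.22 and -7.85 in P0 and -7.37 in LOT1 but at -0.99, 0.54, -0.06 and 0.11 in replicates 2 to 5. The cell cycle inhibitors Cdkn2a and Cdkn2b were dim in P0 and in LOT1 (-8.43 and -8.64) and measured in the numbered replicates (-3.95 to -3.06 and -4.60 to -3.19), and both were called only without LOT1.

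Cysltr1, a receptor for cysteinyl leukotrienes, fell most of the 12 largest falls. It was at -1.55 and -1.47 in P0, at -6.01, -7.40, -6.15 and -6.70 in replicates 2 to 5 and at -3.22 in LOT1, a log2 change of -4.38 ± 0.67 (adjusted p = 0.000346) with LOT1 and -5.05 ± 0.44 without it. Cyp4b1, a cytochrome P450 of fatty acid and xenobiotic metabolism, was at -5.48 and -5.41 in P0 and not well above background in any T-LM P1 sample, at least 2.88-fold lower. Aqp5, a water channel of secretory epithelia, was at -1.85 and -0.13 in P0, at -3.72, -3.68, -4.45 and -4.48 in replicates 2 to 5 and at -3.31 in LOT1 (-2.93 ± 0.44, adjusted p = 0.000294). All T-LM P1 samples lay below both P0 samples in these 3 genes.

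The remaining named falls were of 1.48 to 2.86 on the log2 scale. Plb1, a phospholipase, was at -1.44 and -1.18 in P0, at -3.97 to -5.07 in the numbered replicates and at -2.10 in LOT1. Idi1, isopentenyl-diphosphate isomerase of the sterol pathway, was at -0.48 and -0.18 in P0, at -2.06, -2.02, -2.60 and -2.49 in replicates 2 to 5 and at -1.68 in LOT1 (-1.84 ± 0.29, adjusted p = 0.000428). The histone genes H3c13 and H2ac21 fell by 1.97 and 2.01, the carboxylesterase Ces2g by 1.65, Pop1, a subunit of ribonuclease P, by 1.48, and Maats1, Dennd2d and Tmem125 by 1.75, 1.56 and 2.48. H2ac21 and Tmem125 were well above background on only 1 of the 7 arrays, so their falls rest on a single P0 array each. Histone genes are multigene families whose probes may share signal.

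Metabolic and growth lists were read beside the shares over all symbols, which were 2.78% higher and 0.449% lower with LOT1 and 8.66% and 1.54% without it. These shares are for the scaling as reported. With the percentile over all probes, 197 of 12685 symbols rose and 451 fell with LOT1, and 660 of 12646 rose and 856 fell without it. In the deposited values 223 rose and 107 fell with LOT1, and 748 rose and 388 fell without it. Of 31 genes of cholesterol synthesis and transport, Idi1 alone fell with LOT1, but 5 fell with the percentile over all probes and 2 in the deposited values. Without LOT1, 4 fell (Idi1, Cyp51, Msmo1 and Fdps, all enzymes of synthesis) and 3 rose, among them Abcg1 and Apoe of sterol export. Under those 2 scalings 11 and 5 fell without LOT1, and 1 rose in each. Of 29 genes of the endoplasmic reticulum and integrated stress response, 3 fell with LOT1, and all 3 (Psat1, Phgdh and Mthfd2) belong to serine and one-carbon synthesis. Without LOT1 the same 3 fell and Ppp1r15a, a phosphatase subunit of that response, rose (1.12 ± 0.27). With LOT1, 5 of this list fell with the percentile over all probes, and 1 fell and 1 rose in the deposited values. Psat1 was at 2.16 and 2.12 in P0 and at 1.12 to 1.51 in all T-LM P1 samples, LOT1 included at 1.27 (-0.85 ± 0.17, adjusted p = 0.00412). Of 39 cell cycle and DNA replication genes, 1 rose with LOT1, the inhibitor Cdkn1a (1.90 ± 0.35), and the median change was -0.39. With the percentile over all probes 1 rose and 5 fell, with a median of -0.80, and in the deposited values 1 rose and none fell. Without LOT1, 5 rose, namely the D cyclins Ccnd1 and Ccnd2 and the inhibitors Cdkn1a, Cdkn2a and Cdkn2b, and Rrm2, a subunit of ribonucleotide reductase, fell. Mki67, a marker of cycling cells, had levels of -0.05 and 0.42 in P0 and -0.16 to 1.23 in T-LM P1 and was not called. None of 27 oxidative stress and NRF2 genes was called with LOT1 as reported, and 2 rose and 2 fell without it. With LOT1 and the percentile over all probes 1 fell. Of 23 immediate-early genes, 2 rose with LOT1 (Fosl1 and Ier3) and 8 without it. Of 6 EGF family ligands, receptors and regulators tested, 2 rose with LOT1 (Errfi1 and Hbegf) and 4 without it, including Egfr and its ligand Ereg. None of 13 genes of the insulin-like growth factor axis was called with LOT1, and Irs2 rose without it.

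Hypoxia targets rose in part. Of 33 hypoxia and glycolysis genes, 3 rose with LOT1 and 7 without it, beside 2.78% and 8.66% of all symbols, and none fell. Car9, carbonic anhydrase 9, a target of hypoxia-inducible factor often used as a renal carcinoma marker, was at -6.91 and -7.65 in P0, at -3.75, -3.70, -4.23 and -3.44 in replicates 2 to 5 and at -2.29 in LOT1, at least 5.56-fold higher with LOT1 and at least 4.52-fold without it. Eno2 and Pfkfb4, both of glycolysis, rose by 2.08 ± 0.41 and 1.79 ± 0.23. In these 3 genes LOT1 was as high as the numbered replicates. Slc16a3, the lactate exporter, was called only without LOT1 (at least 41.2-fold higher), its level being -7.52 in LOT1. The transcripts of the regulators were not called with LOT1. Vhl was at -0.71 and -1.46 in P0 and at -1.48 to -0.61 in T-LM P1 (-0.05 ± 0.26), and Epas1 at -1.24 and -1.09 in P0 and at -1.20 to -0.73 in T-LM P1 (0.11 ± 0.14). Hif1a was at -0.91 and -0.76 in P0, at 1.44, 0.24, 0.58 and 0.46 in replicates 2 to 5 and at -0.74 in LOT1, which was not called with LOT1 (1.23 ± 0.43, adjusted p = 0.0759) or without it (1.52 ± 0.39, adjusted p = 0.0105).

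A set of 4 genes that the study took as markers of Vhl loss in RENCA cells was also followed. Tnfsf13b, the B cell survival factor BAFF, had the smallest adjusted p of the 3 that were tested. It was at -8.42 and -8.03 in P0, at -3.65, -4.29, -3.99 and -3.16 in replicates 2 to 5 and at -3.37 in LOT1 (4.53 ± 0.32, adjusted p = 2e-08), at least 4.80-fold higher. Ppef1, a calcium-binding protein phosphatase, was at -7.85 and -7.79 in P0, at -2.87, -4.66, -3.27 and -4.42 in replicates 2 to 5 and at -5.42 in LOT1, at least 3.55-fold higher (adjusted p = 9.67e-05). Both were higher in all 5 T-LM P1 samples than in P0. Postn, periostin, a matrix protein, was called only without LOT1 (at least 6.46-fold, adjusted p = 0.00465), with a level of -8.72 in LOT1 and -4.78 to -1.75 in the numbered replicates. Samsn1 was not well above background on any of the 7 arrays and was not tested.

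The study's own biomarkers and signatures were chosen on the later passages of these lines and partly of this route, so their counts are not independent evidence of a direction. Saa2 was not well above background in P0 or LOT1 and was at -2.98, -2.80, -1.72 and -3.07 in replicates 2 to 5. Cfb, factor B of the alternative complement pathway, was at -8.10 and -7.60 in P0, at -6.34, -3.15, -2.20 and -3.83 in the numbered replicates and at -7.54 in LOT1. Neither gene was called with LOT1 (adjusted p = 0.02 for both), and both were called without it, at least 9.95-fold and at least 4.21-fold higher. Of the study's signatures only some of the genes were used here. The counts below stand beside the 2.78% and 8.66% of all symbols that rose with and without LOT1. Of 20 genes from the T-LM signature none was called with LOT1 and 12 rose without it, with a median log2 change of 2.91, or 3.77 without LOT1, and of -0.50 in LOT1 alone. Of 14 genes from the K-LM signature, for lung metastases of kidney tumors, 6 rose with LOT1 and 13 without it, and of 13 from the KPT signature, for kidney tumors, none and 7 rose. Among surface markers of stem-like cells, 1 of 9 rose with LOT1, Ly6a (2.58 ± 0.37), and 5 without it. Cd44, the hyaluronan receptor, was at -2.79 and -2.36 in P0, at -0.62, -1.19, -1.20 and -0.70 in replicates 2 to 5 and at -3.24 in LOT1, and was called only without LOT1 (1.65 ± 0.28). Aldh1a1 was also called only without LOT1 (at least 7.58-fold higher), and Nt5e in neither fit.

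Of 14 kidney lineage genes 3 rose with LOT1 (Wt1, the water channel Aqp1 and Cubn, a receptor of proximal tubule) and 5 without it. Over all symbols 2.78% and 8.66% rose. Aqp1 was at -8.22 and -7.58 in P0, at -3.95, -2.98, -3.79 and -2.81 in replicates 2 to 5 and at -6.66 in LOT1, at least 3.77-fold higher with LOT1 (adjusted p = 0.00696).

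Markers of host cells that a lung explant could carry were summed over each list and sample, as log2 of the summed scaled signal. In these bulk cultures a larger share of another cell type and more RNA per cell cannot be told apart. The fibroblast and pericyte list (23 genes) stood at -1.56 and -1.77 in P0, with 3 and 2 members well above background, at 2.99 to 4.42 in replicates 2 to 5, with 16 to 17 members, and at -0.31 in LOT1, with 7. Of its 19 tested members 4 rose with LOT1 and 9 without it, beside 2.78% and 8.66% of all symbols. Pdgfra and Pdgfrb, receptors that define fibroblasts and pericytes, were at -5.60 to -3.78 and -3.84 to -3.02 in the numbered replicates and at the level of P0 in LOT1 (-8.65 and -8.41). Thy1 was at -2.16, -0.89, -1.24 and -0.77 in the numbered replicates, -8.53 and -7.93 in P0 and -8.97 in LOT1. Lum and Tcf21, other markers of lung fibroblasts, were not called in either fit, at -7.84 to -5.01 and -8.01 to -5.60 in the numbered replicates. The fibroblast list therefore moved with the same samples as the collagens, Fn1, Mgp, Ltbp2 and Acta2, and 5 of its members (Col1a1, Col1a2, Col3a1, Dcn and Acta2) are themselves genes of those matrix and contractile lists. Its part in those results was not tested. In LOT1 the list as a whole stood above both P0 samples, with its member Dcn high and its members Pdgfra, Pdgfrb and Thy1 at the level of P0. Anxa8, Car9 and Tnfsf13b were high in LOT1 as well. How these values relate to each other was not tested.

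**Figure D4:**
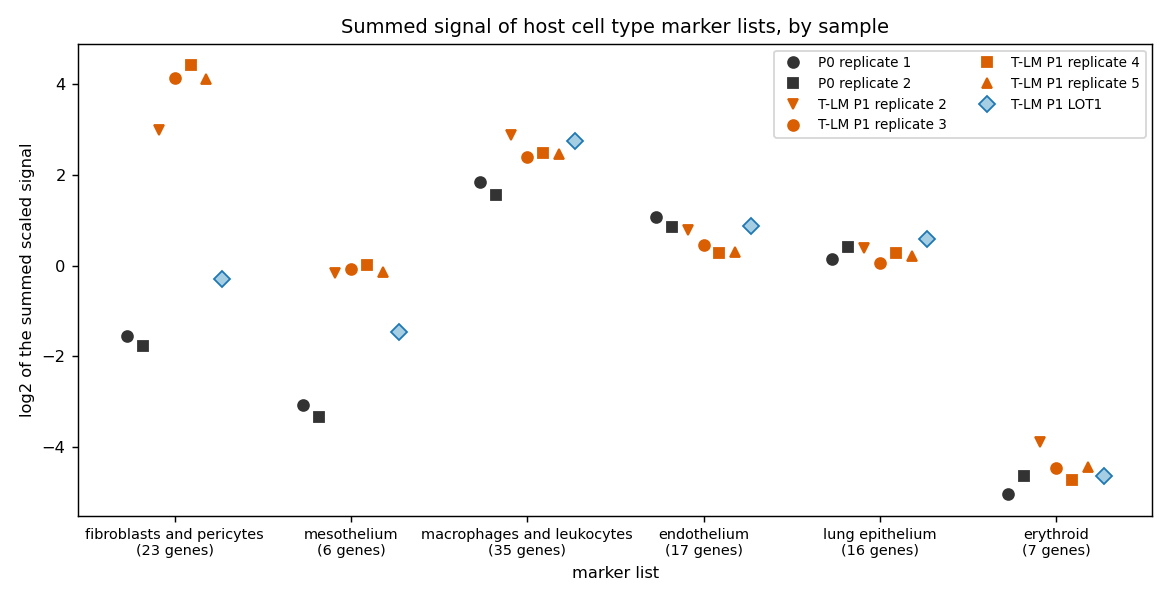
Log2 of the summed scaled signal of 6 host cell marker lists (number of genes in brackets), with a point for each P0 and T-LM P1 sample. Fibroblast and pericyte markers are at 2.99 to 4.42 in the 4 numbered T-LM P1 samples and at -1.77 to -0.31 in P0 and LOT1, while endothelial, lung epithelial and erythroid lists overlap between P0 and T-LM P1.

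The mesothelium list (6 genes) was at -3.08 and -3.34 in P0, at -0.17 to 0.01 in replicates 2 to 5 and at -1.47 in LOT1. Its 3 tested members Wt1, Msln and Krt19 rose in both fits, and the others (Upk3b, Lrrn4 and Calb2) were not tested. Msln, mesothelin, was at -3.67 and -3.72 in P0, at -1.19, -1.65, -1.45 and -1.51 in replicates 2 to 5 and at -2.43 in LOT1 (2.05 ± 0.28, adjusted p = 0.000104). Lrrn4 and Calb2 were not well above background on any of the 7 arrays. Wt1 is also on the kidney list and Krt19 on the epithelial list.

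Markers of leukocytes, lung epithelium and endothelium did not pass the test with LOT1. The macrophage and leukocyte list (35 genes) was at 1.85 and 1.55 in P0, at 2.40 to 2.88 in replicates 2 to 5 and at 2.75 in LOT1, so all T-LM P1 samples lay above P0. Its members well above background numbered 11 and 9 in P0, 17 to 21 in replicates 2 to 5 and 12 in LOT1. The fitted change was positive for 19 of its 29 tested members, with a median of 0.70. None of these 29 was called with LOT1, and 3 rose without it (Itgb2, Marco and S100a8), beside 8.66% of all symbols. Of its members, Ptprc and C1qa were at or near background, with Ptprc well above background on replicate 2 only (-6.78) and C1qa on none of the 7 arrays. Lung epithelium markers were at 0.14 and 0.42 in P0 and at 0.06 to 0.58 in T-LM P1, and none of the 10 tested was called in either fit. Of the 16 lung epithelium genes, 3 were well above background in each P0 sample, 10 in T-LM P1 replicate 2 and 3 to 4 in the other T-LM P1 samples. Replicate 2 also had the highest percentage of all probes well above background (55.1). Sftpc, surfactant protein C of alveolar type 2 cells, was well above background on replicate 2 only (-6.35). Endothelial markers were at 1.06 and 0.86 in P0 and 0.28 to 0.86 in T-LM P1, with no call among 8 with LOT1. Without it Flt1, a receptor of vascular endothelial growth factor, rose (3.00 ± 0.69, adjusted p = 0.00471). Pecam1 stood at -7.83 and -7.71 in P0 and at -7.48 to -5.10 in T-LM P1 and was not called. The erythroid list was at -5.05 and -4.66 in P0 and -4.75 to -3.90 in T-LM P1, with no call among 2 genes in either fit.

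Levels at the first lung passage were then set against the 19 samples of the later T-LM passages P2 to P6, as the mean of those 5 groups minus T-LM P1. Here 561 of 12685 symbols were higher later (4.42%) and 1563 lower (12.3%), and the split turned with the scaling, since 25.9% of the called probes were higher as reported and 79.0% with the percentile over all probes. Without LOT1, 484 of 12646 were higher later (3.83%) and 1745 lower (13.8%). This comparison uses the same T-LM P1 arrays as that with P0, so its values are given side by side for named genes only. Tnfsf13b had a mean level of -8.23 in P0, of -3.69 at P1 and of -3.73, -4.09, -3.70, -2.91 and -3.14 at P2 to P6 (0.18 ± 0.20, not called). Anxa8 was at 1.51 at P1 and rose further by 1.58 ± 0.34 (adjusted p = 0.00146), with group means of 1.84 to 3.59 at P2 to P6. Ppef1 also rose further, by 1.88 ± 0.30. Dcn (-0.92 ± 0.42), Car9 (0.24 ± 0.26) and the falls Cysltr1 (0.91 ± 0.41) and Aqp5 (0.20 ± 0.27) did not pass the test between P1 and later passages. Of these 7 genes Cysltr1 alone changed its call without LOT1, being higher later by 1.58 ± 0.28 (adjusted p = 0.000325).

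Mean levels of collagen and fibronectin were lowest at P2 and P3 along the route, a pattern of single passages that was not tested. Mean levels of Col1a1 were -0.02 at P1 with LOT1 and 1.53 without it, -4.32 at P2, -6.11 at P3 and -0.07, -0.26 and -0.23 at P4 to P6. Fn1 had means of 0.32 at P1 with LOT1 and 1.87 without it, -2.77 at P2, -5.73 at P3 and 0.63, 0.56 and 0.35 afterwards. The P3 samples were split. Replicates 2, 3 and 5 were at -8.35, -6.90 and -3.07 for Col1a1 and at -7.94, -7.05 and -2.19 for Fn1. P2 and P3 hold 2 and 3 samples, and the difference between the mean of all later passages and P1 did not pass the test for either gene with LOT1 (-2.18 ± 1.01, adjusted p = 0.101, and -1.71 ± 0.99, adjusted p = 0.186). Without LOT1 both were lower later, Col1a1 with a difference of -3.73 ± 0.75 (adjusted p = 0.001) and Fn1 with one of -3.27 ± 0.71 (adjusted p = 0.00195), and Mgp passed as well (-4.10 ± 0.82, against -2.20 ± 1.18 with LOT1). Whether collagen and fibronectin differed between P1 and later passages thus turned on LOT1. Of the 15 interstitial collagens, 3 were called lower later with LOT1 and 12 without it. Of the 16 acute phase genes, 10 were called lower later with LOT1 and 14 without it, and none higher. Serpina3n had the largest later fall of all named genes, from -1.88 at P1 to -5.66 at P2 and -8.18 at P6 (-5.05 ± 0.41, adjusted p = 2.64e-08). By the same rule the next largest later falls were of Zbtb16, a zinc finger transcription factor, by 3.82, Slc6a12, a transporter of betaine and GABA, by 3.76, and Tnxb, a tenascin of the matrix, by 2.90, while Gdap10 was at least 4.97-fold lower. The largest later rises were of B4galnt2, a glycosyltransferase (4.97 ± 0.29), Mamdc2 (4.61 ± 0.58), Ctag2l2 (at least 8.75-fold), Ctxn3 (4.32 ± 0.34) and Car6, a secreted carbonic anhydrase (3.96 ± 0.43). The RNA balance measure given above was -9.35 to -6.71 in T-LM P2 to P6, overlapping with T-LM P1 only at its upper end, and with it as a covariate 644 probes were called in place of 3892.

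**Figure D5:**
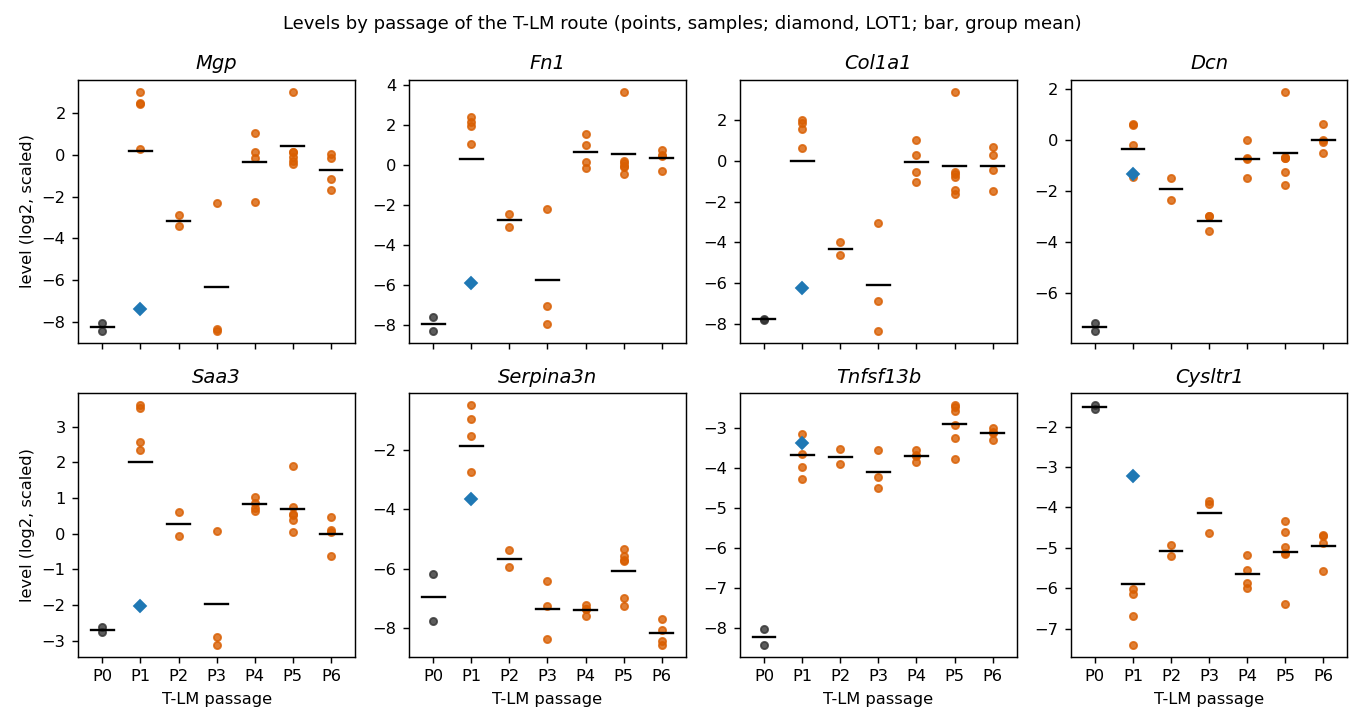
Levels (log2, scaled) of 8 genes in P0 and at each T-LM passage, with a point for each sample, a diamond for LOT1 and a bar for the group mean, LOT1 included. Tnfsf13b keeps its P1 level to P6 and Serpina3n returns to the level of P0. Col1a1, Fn1 and Mgp have lower means at P2 and P3 than at the other T-LM passages, with both P2 samples above P0 and only P3 replicates 2 and 3 near P0.

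To ask where the first lung passage differed from the first kidney passage, T-LM P1 was compared with 5 KPT P1 cultures, recovered from kidney tumors after injection of the same parental cells under the kidney capsule of BALB/c mice. Of 13177 symbols, 63 were higher in T-LM P1 (0.478%) and 40 lower (0.304%), and without LOT1 132 of 13162 were higher (1.00%) and 49 lower (0.372%). Rspo3, an activator of Wnt signaling, was at least 8.2-fold higher in T-LM P1 (fitted difference 4.35 ± 0.69, adjusted p = 0.00032), at -4.82, -1.88, -1.70, -2.92 and, in LOT1, -5.28, and was not well above background in any KPT P1 sample. Gfra2, a receptor of neurturin, was at least 2.91-fold higher, Hspb7, a small heat shock protein, higher by a log2 of 3.07 ± 0.48 and Dclk1, a kinase that binds microtubules, higher by a log2 of 2.65 ± 0.49. Tnfsf13b, at a mean of -5.81 ± 0.81 (SD, n = 5) in KPT P1 and -3.69 ± 0.46 (SD, n = 5) in T-LM P1, was higher by 2.12 ± 0.26 (adjusted p = 3.26e-06). Lower in T-LM P1, and not well above background in any of its samples, were Mmp12, macrophage elastase (at least 10.9-fold, adjusted p = 0.00802), and Itgax, an integrin of macrophages and dendritic cells (at least 6.37-fold, adjusted p = 0.00752). Neither passed the test without LOT1 (adjusted p = 0.0166 for Mmp12 and 0.0117 for Itgax), while Rspo3, Gfra2, Hspb7, Dclk1, Tnfsf13b, Mbnl3, Elovl7 and Ccl17 kept their call. Mbnl3, a splicing regulator, Elovl7, a fatty acid elongase, and Ccl17, a chemokine, were also dim in all T-LM P1 samples and at least 4.85-fold, 1.3-fold and 2.65-fold lower. Elovl7 was well above background on 1 KPT P1 array only. The macrophage and leukocyte list as a whole had a median difference of -0.86, with 1 of its members called higher (Marco, a scavenger receptor) and 1 lower (Itgax) in T-LM P1, and without LOT1 Marco alone was called. None of the interstitial collagens, basement membrane genes or matrix glycoproteins was called between the routes, with median differences of 0.91, 0.48 and 0.76. Without LOT1 the glycoproteins Ltbp1 and Mgp were called higher in T-LM P1. Of 17 acute phase genes tested, 3 were higher in T-LM P1 with LOT1 (Serpina3m, Serpina3n and Lrg1) and 9 without it, and none was lower. Without LOT1, 267 probes were called between the routes in place of 146, and without T-LM P1 replicate 4 the count was 58.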

How the data were processed

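Total RNA was amplified and labelled with Cy5, per the labels, and hybridised to single-colour mouse arrays. In the deposited scanner output each of 62976 spots has a median intensity, a local background intensity and an intensity after background subtraction by the scanner software, which was used here. A deposited table of log2 values, quantile normalized by the authors, served as an alternative. No aligner or genome build enters. Array numbers, not counting depth, limit the precision.

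Control spots (3671) were left out and the rest averaged into 55681 probes. RefSeq (GRCm38.p6, names only) gave symbols to 28026 probes, and for each of 21154 symbols the probe of highest mean level stood for the gene. The percentile behind a level was taken over 11289 probes. Testing required a signal well above background on 2 or more of the 26 arrays of the fit, namely P0 and T-LM P1 to P6, which share 1 estimate of spread as in the study's fits by route. KPT P1 was compared in a fit that added the KPT arrays. Moderated tests (limma 3.58.1 under R 4.3.3, lmFit followed by eBayes) were 2-sided, with Benjamini-Hochberg adjustment over all probes tested and a threshold of 0.01, and every adjusted p given is from limma. Errors of fitted changes are SE. Each dim array entered a bound at its lowest signal well above background. The procedure was tested on simulated data. Tables and plots used Python 3.11.15, pandas 2.3.3 and matplotlib 3.10.9.

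The samples, gene lists and rules were chosen with earlier results of these data known. Genes named were the 12 largest called rises and falls without overlap between the groups (predicted genes skipped), up to 4 called members of each list or the 2 with the smallest p, a set of 13 genes always given, and for the 2 further comparisons the 5 largest changes each way. Other genes, among them Acta2, Il6, Ccl2, Thy1, Vim, Mki67, Slc16a3, Cdkn2a, Cdkn2b, Pdgfra and Pdgfrb, were picked after their values were seen, as examples. Where a symbol had several tested probes, no probes of a named gene were called in opposite directions. Alternatives covered scaling, normalization, background correction, the filter on dim probes, the samples in the fit, slide, array weights, RNA balance, the repeat P0 arrays and each sample left out. The scanner files used here have no mean signal column, so normexp was run on median signal with an offset of 50. Alternatives for the comparison without LOT1 were added after seeing the data. Repeat arrays were otherwise used only for the choice of common probes and for their RNA balance. A few genes that these rules would name are not reported here.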

Additional observations from a re-analysis of the deposited data

Results flagged for a closer look

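Of 38 values tested within the 5 T-LM P1 samples for a single sample far from the rest, 12 exceeded the critical ratio of 0.71 (gap to the nearest sample over the whole range). For a value chosen without regard to these samples, chance gives about 1 in 20. The values tested include the 12 largest rises and 12 largest falls, which were picked on these same samples, so that rate does not hold for them. LOT1 was the low sample in 11 of the 12 that exceeded the ratio. The ratio was 0.834 for Col1a1, 0.817 for Col1a2, 0.838 for Fn1, 0.740 for Mgp, 0.928 for Ltbp2, 0.897 for Lrrc32, 0.839 for Tmsb4x, 0.807 for Cpe, 0.779 for Cd44, 0.741 for Saa1 and 0.802 for Saa2. These genes are not independent of each other, since 1 sample is behind all of them. The other was the percentage of probes well above background, highest in T-LM P1 replicate 2 (55.1%, ratio 0.876), a sample in which Ptprc, Sftpc and Cdh1 were also the only T-LM P1 values well above background.

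The first passage through lung was compared with the first passage through kidney by the direct test between T-LM P1 and KPT P1. Given here are 10 genes that passed it, from the largest changes each way and, in addition, Tnfsf13b, and members of lists that passed as well are given with the results. Fitted differences on the log2 scale, T-LM P1 minus KPT P1, were 4.353 for Rspo3, 3.397 for Gfra2, 3.075 for Hspb7, 2.650 for Dclk1 and 2.122 for Tnfsf13b, and -4.354 for Mmp12, -4.299 for Itgax, -3.133 for Mbnl3, -2.341 for Elovl7 and -2.227 for Ccl17. In Mmp12, Itgax, Mbnl3, Elovl7 and Ccl17 no T-LM P1 sample was well above background, and in Rspo3 and Gfra2 no KPT P1 sample was, so these fitted values are not bounds. Without LOT1, Mmp12 and Itgax did not pass (adjusted p = 0.0166 and 0.0117).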

How the results depend on the processing

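No paired analysis was possible because P0 and T-LM P1 share only replicate number 2. From P0 to T-LM P1, 601 probes were called. The count was 1037 with the percentile over all probes, 283 with no filter, 329 with probes above background on all arrays, 987 with all routes in one model, 64 with slide as a fixed term, 1996 with array weights, 1015 with RNA balance as a covariate and 1363 with the repeat P0 arrays. With only the 7 arrays compared limma called 0, with 5207 at an unadjusted p under 0.05, and 1452 without LOT1. Leaving out 1 sample gave 60 (without P0 replicate 2) to 1887 (without LOT1), with 147 without P0 replicate 1 and 374 without T-LM P1 replicate 5. Without LOT1 all 6 added alternatives gave 1452 to 2468. None of the 24 largest changes reversed, which was unlikely from the start given their size. Of these, 24 were called with the percentile over all probes, 22 in the deposited series values, 19 with dim signals raised to a floor, 7 with slide as a fixed term, 4 of 23 without P0 replicate 2 and 8 of 23 without P0 replicate 1. Mgp, Col1a1, Col1a2, Tmsb4x, Cpe, Lrrc32, Pop1 and H2ac21 were each called in only 1 of 7 fits with a sample left out. That fit was the one without LOT1, and the same held for Saa3. Small changes that were never called turned sign: Epas1 was -0.304 with the percentile over all probes, -0.060 in the deposited values and -0.071 after normexp; Vhl was 0.019 in the deposited values, 0.073 with slide fixed, 0.081 with RNA balance and -0.42 to 0.33 over the samples left out; and Lamp3 was -0.62 to 0.14 over the samples left out. From T-LM P1 to later passages 3892 probes were called, and 2490 with no filter, 1994 with probes above background on all arrays and 644 with RNA balance; the samples left out gave 2643 to 4656. Between KPT P1 and T-LM P1 146 were called, and 33 with probes above background on all arrays, 0 with only the arrays compared (2196 at an unadjusted p under 0.05), 93 with slide fixed and 69 with array weights; the samples left out gave 58 to 267. The causes of these differences were not tested. Dim probes and 2 P0 samples limit what can be told.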
